A study of Mus musculus with 19 samples.

Results

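Potassium, water and gap-junction homeostasis of astrocytes was followed through 9 genes, Kcnj10, Kcnj16, Aqp4, Mlc1, Hepacam, Gja1, Gjb6, Atp1b2 and Slc4a4. They were taken by name from a deposited table of 24537 genes in 19 libraries, and all 9 were present. Each had a mean of at least 1 TPM, a transcript abundance scaled by length and library total, the limit for testing, which 15049 genes met. Levels are given as scaled TPM, the deposited TPM divided by 1 factor per library.

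Active neurons release potassium, and astrocytes take it up through the inwardly rectifying channel Kir4.1, encoded by Kcnj10, and through the sodium pump. Water follows through the aquaporin AQP4, which is concentrated at endfeet on blood vessels together with the membrane protein MLC1 and its partner GlialCAM, encoded by Hepacam. Connexin 43 (Gja1) and connexin 30 (Gjb6) join neighbouring astrocytes into a network through which the ions spread.

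RNA was extracted from nuclei of mouse cortex that had been stained and sorted as positive for SOX9, a transcription factor of astrocytes, and negative for the neuronal protein NEUN. Smad4 cKO mice were Fmr1 +/y, Smad4 fl/fl and GFAP-cre+ (n = 6), and Fmr1 KO mice were Fmr1 -/y, Smad4 fl/fl and GFAP-cre- (n = 5). Double mutants were Fmr1 -/y, Smad4 fl/fl and GFAP-cre+ (n = 4), and WT mice were Fmr1 +/y, Smad4 fl/fl and GFAP-cre- (n = 4). The floxed Smad4 allele was thus carried by all animals, the WT included, and Smad4 loss depends on a Cre driven by the Gfap promoter (line Gfap-Cre73.12). Fmr1, the gene silenced in fragile X syndrome, encodes a protein that binds mRNAs and was mutant throughout the body. Smad4 encodes the SMAD protein shared by BMP and TGF-beta signalling. All mice were C57BL/6J, hemizygous for X-linked Fmr1, and aged postnatal day 26 (8 libraries), 27 (9) or 28 (2). Smad4 cKO had 3, 2 and 1 libraries on these days, Fmr1 KO 2, 3 and 0, double mutants 2, 2 and 0, and WT 1, 2 and 1.

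Listed TPM summed to between 665382 and 716222 per library, and the number of reads behind them is unknown. The 16 astrocyte markers summed to between 8040 and 13890 scaled TPM per library and the 15 neuron markers to between 102.4 and 768.8, with no marker of either list at 0 in all libraries. Fmr1 transcript was higher in every library labelled Fmr1 -/y (35.4 to 41.6 scaled TPM) than in every Fmr1 +/y library (20.5 to 31.5). Smad4 transcript lay between 29.8 and 36.5 scaled TPM in all 19 libraries. Neither value checks the labels: the whole-gene values do not show the mutated Fmr1 exon or the floxed part of Smad4. The share of listed TPM held by the ribosomal precursor Rn45s was 15.6 to 23.1% in Fmr1 -/y libraries and 20.7 to 35.7% in Fmr1 +/y libraries.

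Kcnj10 was the member that stood apart by genotype. Its lowest, median and highest levels were 103.7, 134.5 and 143.5 scaled TPM in Smad4 cKO, and it had 97.9, 129.4, 114.2, 157.7 and 108.8 in Fmr1 KO, 157.4, 154.9, 153.6 and 145.5 in double mutants and 97.2, 58.6, 83.2 and 71.4 in WT. All 15 mutant libraries lay above all 4 WT libraries, although the lowest Fmr1 KO library (97.86) and the highest WT library (97.24) were next to each other. Double mutants were the most uniform, with a coefficient of variation of 3.38% against 21.3% in WT. Smad4 cKO and double mutants did not overlap either, but their nearest libraries were at 143.5 and 145.5, and that difference was not called (limma adjusted p = 0.688). How many of all genes tested separate between groups this small was not counted, here or where overlap is given below.

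Kcnj10 rose in Smad4 cKO against WT, to 1.67-fold its WT level, a log2 change of 0.74 ± 0.14 (SE; limma adjusted p = 0.01). It was the only 1 of 9 members called, where 0.784% of the genes tested passed. In double mutants it rose to 1.99-fold its WT level, a log2 change of 0.99 ± 0.15 (limma adjusted p = 0.00287), again with 1 of 9 members called against 0.957% of all genes. Both comparisons use the same 4 WT libraries. Averaged over both Fmr1 backgrounds, the Smad4 cKO label went with a log2 change of 0.54 ± 0.10 (limma adjusted p = 0.00413), and this was the 1 member of 9 that passed among 1.81% of genes.

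The Smad4 difference did not depend on WT alone for its sign. Against Fmr1 KO, double mutants had a Kcnj10 log2 change of 0.35 ± 0.14 (limma adjusted p = 0.747), and 0 of 9 members passed, against 0.405% of genes. At an unadjusted limma p under 0.05 there was 1 member, Kcnj10. By day, libraries with the Smad4 cKO label averaged 143.9 ± 11.5 scaled TPM (SD, n = 5) at day 26, against 113.6 ± 16.1 (n = 3) without it, and the groups did not overlap. At day 27 they averaged 136.6 ± 22.3 (SD, n = 4), against 103.8 ± 33.3 (n = 5), with overlap.

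The call in Smad4 cKO against WT was near its limit. Without WT replicate 2, the lowest library and the only WT at day 28, the log2 change was 0.61 and the limma adjusted p was 0.0522. With the 2 compared groups fitted alone the log2 change was 0.74 (limma adjusted p = 0.0617). The double mutant call and the averaged Smad4 call passed in every fit tried, including each fit without 1 library, with limma adjusted p of 0.00127 to 0.0409 for double mutants and 0.0014 to 0.0216 for the average.

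Oligodendrocytes also express Kcnj10. The 10 oligodendrocyte markers had estimates of the same sign, though none passed: all 10 lay above 0 in Smad4 cKO against WT (median log2 change 0.32) and in double mutants against WT (median 1.33), with 0 called by limma in either. Neuron markers lay below 0 in Smad4 cKO against WT, 14 of 15 with a median of -0.52 and 0 called by limma. Of 16 astrocyte markers, 12 lay above 0 in Smad4 cKO against WT (median 0.155) and 12 in double mutants against WT (median 0.148). Limma called 0 of them in either, and 1 higher for the averaged Smad4 label. With the neuron score as a covariate, the Kcnj10 log2 change was 0.69 in Smad4 cKO against WT (limma adjusted p = 0.0305), 0.99 in double mutants against WT (0.00271) and 0.52 for the averaged Smad4 label (0.00864). With the astrocyte score it was, in the same order, 0.66 (limma adjusted p = 0.0223), 0.92 (0.00361) and 0.48 (0.0114). The oligodendrocyte markers' summed level was 240.0 to 2915 scaled TPM in Smad4 cKO, 296.6 to 3123 in Fmr1 KO, 764.7 to 3624 in double mutants and 273.6 to 1456 in WT. Kcnj10 stood at 138.1 scaled TPM in the library with the lowest sum of all 19, Smad4 cKO replicate 3. It stood at 153.6 in that with the highest, double mutant replicate 3. In WT and in Fmr1 KO, the library with the lowest sum had the lowest Kcnj10 of its group. These were WT replicate 2 (sum 273.6, Kcnj10 58.6) and Fmr1 KO replicate 1 (sum 296.6, Kcnj10 97.9). In double mutants the library with the lowest sum, replicate 1 (764.7), had the highest Kcnj10, 157.4. These are single libraries, given as a description. After centring on group means, Kcnj10 had a Pearson r of 0.335 with the oligodendrocyte score. With the oligodendrocyte score as a covariate, the Kcnj10 log2 change was 0.72 in Smad4 cKO against WT (limma adjusted p = 0.0126) and 0.91 in double mutants against WT (limma adjusted p = 0.014). In bulk nuclei, a change in the number of cells of a type and a change in RNA per cell cannot be told apart.

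Kcnj10 lies on chromosome 1, at chr1:172341210-172374085 on the plus strand of GRCm38, and Kcnj16 on chromosome 11, at chr11:110968033-111027968 on the plus strand. Kcnj16 encodes Kir5.1, a subunit that forms mixed channels with Kir4.1. Their upstream sequences are shown because Kcnj10 passed the Smad4 comparison and its channel partner did not. Each is the 250 bases before the gene start from RefSeq on GRCm38.p6 (chr1:172340960-172341209 and chr11:110967783-110968032, plus strand, for Kcnj16 the farthest upstream of 4 starts listed). Capitals mark CAGAC, the letters of the SMAD binding element, or its reverse complement GTCTG.
Kcnj10: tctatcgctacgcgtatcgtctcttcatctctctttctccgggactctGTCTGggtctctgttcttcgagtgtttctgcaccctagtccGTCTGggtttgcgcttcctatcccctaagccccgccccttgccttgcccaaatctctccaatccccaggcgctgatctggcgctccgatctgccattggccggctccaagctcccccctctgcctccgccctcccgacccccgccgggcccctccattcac
Kcnj16: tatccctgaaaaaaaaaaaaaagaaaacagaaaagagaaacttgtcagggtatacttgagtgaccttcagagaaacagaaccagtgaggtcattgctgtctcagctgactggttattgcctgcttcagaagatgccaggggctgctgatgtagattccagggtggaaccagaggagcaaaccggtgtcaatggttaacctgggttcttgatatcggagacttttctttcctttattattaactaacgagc
The Kcnj10 stretch held the letters at 2 places, beginning 202 and 161 bases before the start, and the Kcnj16 stretch at 0.

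In the 300-base windows that reach 50 bases past the start, 2 of the 7 members with a RefSeq promoter, Kcnj10 and Hepacam, held CAGAC or GTCTG on either strand, each at 2 places. Of 27025 mouse promoters of that length, 49.7% held it and 16.1% held it at 2 or more places. GGCGCC, a GC-rich SMAD element that reads the same on both strands, was in 1 of the 7, Slc4a4, and in 12.0% of all promoters. No CAGAC match overlapped a GGCGCC match in these 7 windows. A match is a run of letters and was not tested as a binding site.

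**Figure D1:**
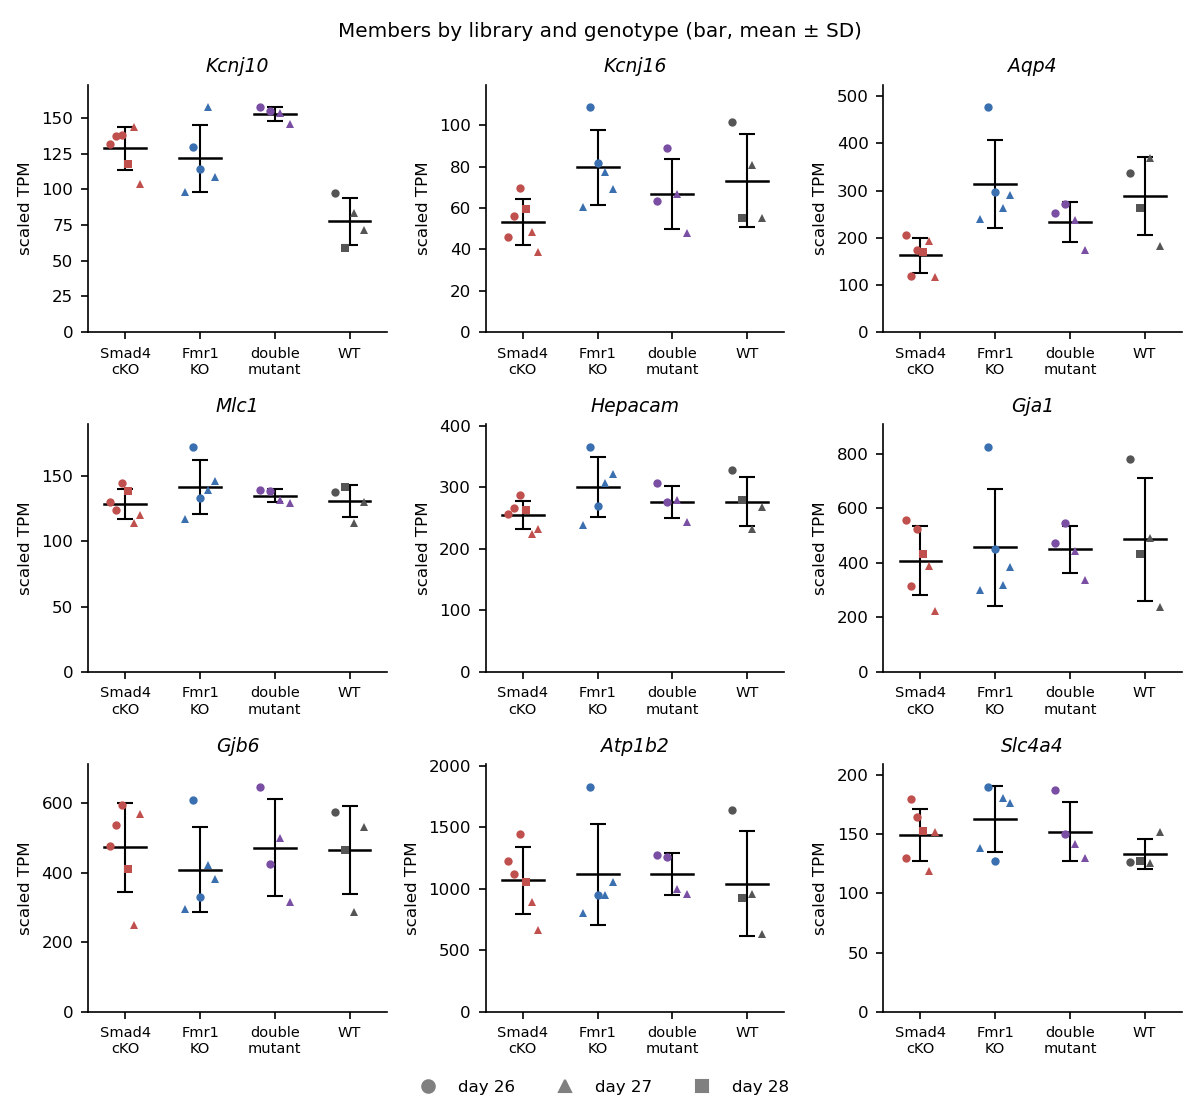
Scaled TPM (y axis) of the 9 genes in each library, by genotype (x axis); marker shapes give the postnatal day, and bars the mean ± SD (n = 6 Smad4 cKO, 5 Fmr1 KO, 4 double mutants, 4 WT). All Kcnj10 points of the mutant groups lie above the WT points, whose highest is 97.2, while the other 8 genes overlap between each mutant group and WT. The share of all genes that separate in this way was not counted.

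The partner Kcnj16 did not rise with Kcnj10. Its lowest, median and highest levels were 38.6, 52.2 and 69.7 scaled TPM in Smad4 cKO, against 101.7, 55.1, 80.6 and 55.1 in WT, and these ranges overlapped. Double mutants had 63.3, 88.7, 66.7 and 47.7, against 60.6, 108.8, 81.8, 77.3 and 69.2 in Fmr1 KO, also with overlap. The limma log2 change was -0.43 ± 0.21 (SE) in Smad4 cKO against WT (adjusted p = 0.618), -0.12 ± 0.23 in double mutants against WT (adjusted p = 0.918) and -0.34 ± 0.15 for the averaged Smad4 label (adjusted p = 0.393).

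The ratio of Kcnj10 to Kcnj16 within a library was therefore higher with the Smad4 label, given here as a description with no test. It was 1.97 to 2.96 in Smad4 cKO (median 2.57), 1.19 to 2.04 in Fmr1 KO (median 1.57), 1.75 to 3.05 in double mutants (median 2.39) and 0.956 to 1.30 in WT (median 1.05). Every Smad4 cKO and double mutant library lay above every WT library. Fmr1 KO overlapped with double mutants and, at its low end, with WT.

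Aqp4, the main water channel of astrocytes, lies on chromosome 18, at chr18:15389496-15410982 on the minus strand of GRCm38. It had its lowest levels in Smad4 cKO, at 115.9, 171.7 and 205.7 scaled TPM (lowest, median and highest), against 337.6, 262.0, 369.0 and 183.2 in WT. Only WT replicate 4 reached into the Smad4 cKO range. Double mutants had 253.3, 270.8, 238.5 and 173.6, against 240.5, 477.4, 296.9, 263.6 and 290.3 in Fmr1 KO, and the groups overlapped.

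The Aqp4 difference did not pass. Its log2 change was -0.80 ± 0.23 (SE) in Smad4 cKO against WT (limma adjusted p = 0.141), an estimate of 0.573-fold with a 95% interval of 0.412 to 0.797. For the averaged Smad4 label it was -0.60 ± 0.16 (limma adjusted p = 0.0776). Without WT replicate 4 both estimates were further from 0 and passed (limma adjusted p of 0.0441 and 0.0232). The averaged value also passed with quantile normalization and with day as a factor, and both passed with the astrocyte score in the model, at -0.97 and -0.74 (limma adjusted p of 0.0272 and 0.0107). Within day 26, Aqp4 averaged 204.6 ± 61.3 scaled TPM (SD, n = 5) with the Smad4 label and 370.6 ± 94.7 (n = 3) without it, with no overlap, and within day 27 it averaged 180.0 ± 50.7 (n = 4) and 269.3 ± 68.3 (n = 5), with overlap. GENCODE places the antisense gene AC133525.2 across Aqp4, and no source used here says whether reads were assigned by strand, so reads of the pair cannot be told apart.

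Kcnj10 over Aqp4 was 0.642 to 1.15 in Smad4 cKO, 0.271 to 0.598 in Fmr1 KO, 0.572 to 0.838 in double mutants and 0.224 to 0.390 in WT, again described without a test. Smad4 cKO and double mutant libraries all lay above the WT libraries. The double mutants' lowest library lay below the highest Fmr1 KO library.

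**Figure D2:**
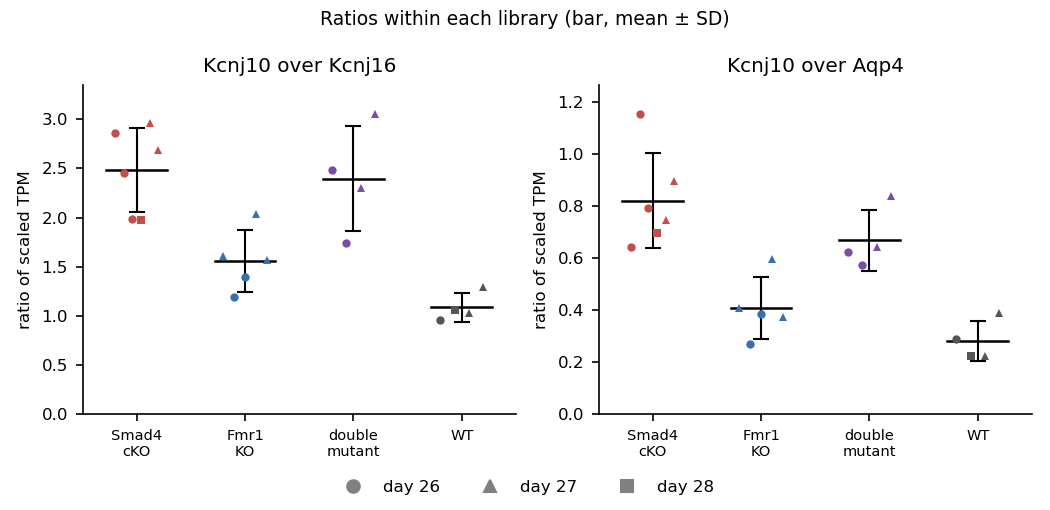
Ratio of scaled TPM within each library (y axis), Kcnj10 over Kcnj16 on the left and Kcnj10 over Aqp4 on the right, by genotype (x axis); marker shapes give the day and bars the mean ± SD. Every Smad4 cKO and double mutant point lies above the WT points in both panels, where WT reaches 1.30 and 0.390.

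Mlc1 and Hepacam did not separate the genotypes. Mlc1 (chr15:88955884-88979007, minus strand) is a membrane protein whose loss in humans causes a leukoencephalopathy with cysts, and Hepacam (chr9:37367351-37386575, plus strand) encodes the adhesion protein that carries it to cell junctions. Mlc1 averaged 128.4 ± 11.4 scaled TPM in Smad4 cKO, 141.5 ± 20.3 in Fmr1 KO, 134.7 ± 4.91 in double mutants and 130.9 ± 12.1 in WT (SD). Hepacam averaged 254.6 ± 23.1 in Smad4 cKO, 300.3 ± 48.7 in Fmr1 KO, 276.0 ± 26.3 in double mutants and 276.4 ± 39.7 in WT. For the averaged Smad4 label the limma log2 changes were -0.04 ± 0.07 for Mlc1 (SE; adjusted p = 0.913) and -0.11 ± 0.08 for Hepacam (adjusted p = 0.762). Hepacam passed in 1 fit, with the astrocyte score as a covariate.

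The astrocyte connexins overlapped between genotypes too. Gja1 (chr10:56377330-56402513, plus strand) averaged 406.4 ± 126.6 scaled TPM in Smad4 cKO, 455.7 ± 214.3 in Fmr1 KO, 449.6 ± 86.5 in double mutants and 485.2 ± 224.5 in WT (SD). Gjb6 (chr14:57123303-57133611, minus strand) averaged 473.7 ± 127.9 in Smad4 cKO, 409.0 ± 121.9 in Fmr1 KO, 472.9 ± 139.3 in double mutants and 465.4 ± 126.7 in WT. Their limma log2 changes for the averaged Smad4 label were -0.07 ± 0.24 (SE; adjusted p = 0.970) for Gja1 and 0.11 ± 0.19 for Gjb6 (adjusted p = 0.925). The 95% intervals, -0.56 to 0.43 and -0.30 to 0.52, leave room for moderate changes in either direction.

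Atp1b2 (chr11:69599736-69605942, minus strand) encodes the beta-2 subunit of the sodium pump, also called AMOG, and Slc4a4 (chr5:88886818-89239653, plus strand) encodes the sodium bicarbonate cotransporter NBCe1. Atp1b2 averaged 1068 ± 271.1 scaled TPM in Smad4 cKO, 1116 ± 408.6 in Fmr1 KO, 1119 ± 167.1 in double mutants and 1039 ± 426.9 in WT (SD). Slc4a4 averaged 149.5 ± 22.1 in Smad4 cKO, 162.6 ± 27.8 in Fmr1 KO, 152.3 ± 25.2 in double mutants and 133.1 ± 12.8 in WT. Neither passed for the averaged Smad4 label, with limma log2 changes of 0.07 ± 0.19 (SE; adjusted p = 0.962) and 0.03 ± 0.10 (adjusted p = 0.963), both just below 0 with quantile normalization. The 6 genes from Mlc1 to Slc4a4 overlapped between every mutant group and WT.

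Per unit of transcript length, the WT order was Atp1b2 with 1039 scaled TPM, Gja1 485.2, Gjb6 465.4, Aqp4 287.9, Hepacam 276.4, Slc4a4 133.1, Mlc1 130.9, Kcnj10 77.6 and Kcnj16 73.1. The ranges of neighbours over the 4 WT libraries overlapped at each step except between Hepacam and Slc4a4 and between Mlc1 and Kcnj10. Atp1b2 was nevertheless above Gja1 in all 4 libraries. By mean over 19 libraries, Atp1b2 ranked 16 of 24537 genes and Kcnj16 1172. Across libraries Mlc1 spanned 1.51-fold from lowest to highest and Aqp4 4.12-fold.

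The Fmr1 label was examined in the same way. In Fmr1 KO against WT, Kcnj10 was 1.57-fold higher by estimate, with a log2 change of 0.65 ± 0.14 (SE; limma adjusted p = 0.150). Here limma called 0 of 9 members and 0% of the genes tested, so the count of 0 says nothing particular to the members, and 1 member, Kcnj10, and 1239 genes had an unadjusted p under 0.05. Kcnj10 passed without WT replicate 3 (log2 change 0.69, limma adjusted p = 0.0442) and when each group lost its library with the highest neuron score (0.76, limma adjusted p = 0.0477).

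In double mutants against Smad4 cKO, 0 of 9 members were called by limma, against 0.0199% of genes. At an unadjusted p under 0.05 there was 1, Aqp4. All 9 log2 changes were above 0 there, with a median of 0.12 against 0.01 over all genes tested. Of the 16 astrocyte markers, 8 were above 0 (median -0.03), with 0 called by limma. Markers of some other cell types had estimates of 1 sign, also with 0 called by limma. All 15 neuron markers (median 0.57) and all 10 oligodendrocyte markers (median 1.02) were above 0, and all 8 endothelial markers (median -0.97) were below 0. Aqp4 had a log2 change of 0.54 ± 0.23 (SE; limma adjusted p = 0.596), Kcnj16 0.31 ± 0.21 (limma adjusted p = 0.759) and Kcnj10 0.25 ± 0.14 (limma adjusted p = 0.688).

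Averaged over both Smad4 backgrounds, Kcnj10 rose with the Fmr1 -/y label by 0.45 ± 0.10 on the log2 scale (SE; limma adjusted p = 0.0289). That was 1 of 9 members, where 1.53% of genes passed. The call was lost with the replicate number as a block (limma adjusted p = 0.124), with day as a factor (0.0745), with the oligodendrocyte score (0.109) and in 7 of the 19 fits without 1 library, with an adjusted p of up to 0.124 over all fits tried. Those 7 left out WT replicates 2 and 4, Smad4 cKO replicate 4, Fmr1 KO replicate 4 and double mutant replicates 1, 2 and 3. Within day 26, Kcnj10 averaged 139.0 ± 20.8 scaled TPM with the Fmr1 -/y label and 126.1 ± 19.4 without it (SD, n = 4 each), and within day 27 it averaged 132.7 ± 27.4 (n = 5) and 100.5 ± 31.6 (n = 4). Both days showed overlap.

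The remaining members had averaged Fmr1 log2 changes between -0.09 ± 0.19 (SE) for Gjb6 and 0.33 ± 0.16 for Aqp4, with limma adjusted p of 0.395 and above. Among them were Kcnj16 at 0.23, Slc4a4 at 0.15, Hepacam at 0.12, Atp1b2 at 0.11, Mlc1 at 0.09 and Gja1 at 0.06, the last of which was just below 0 with quantile normalization. Oligodendrocyte markers were above 0 in this comparison as well, 10 of 10 with a median of 0.82 and 0 called by limma. Endothelial markers fell, 5 of 8 called lower by limma with a median log2 change of -1.04, and the Rn45s share was lower with the Fmr1 -/y label, as given above. The part of the endothelial markers and of Rn45s in the Kcnj10 result was not tested.

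No member's Smad4 difference was shown to depend on Fmr1. The interaction, taken as the Smad4 cKO difference among Fmr1 -/y mice minus that among Fmr1 +/y mice, had 0 of 9 members and 0% of genes called by limma. At an unadjusted p under 0.05 there were 0 members and 250 genes. It was -0.39 ± 0.20 for Kcnj10 (95% interval -0.81 to 0.02), 0.41 ± 0.33 for Aqp4 (-0.28 to 1.09) and 0.17 ± 0.30 for Kcnj16 (-0.46 to 0.81), each with a limma adjusted p of 1.00. These intervals are wide enough to hold differences as large as the Smad4 changes themselves.

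**Figure D3:**
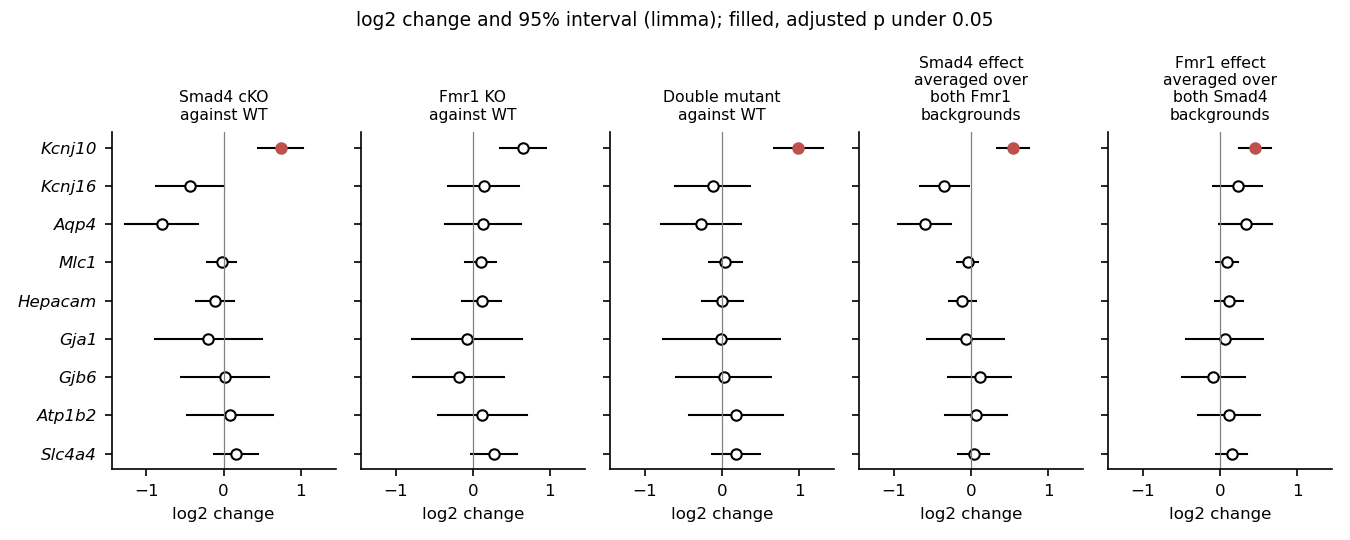
log2 change on the log2(scaled TPM + 1) scale (x axis) of the 9 genes (y axis) in 5 comparisons, with 95% intervals from limma; filled points have an adjusted p under 0.05. Kcnj10 is filled in 4 of the 5 panels, and Aqp4 lies lowest in Smad4 cKO against WT at -0.80.

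Age at collection went with the levels of several members. With genotype in the model, all 9 lay below 0 in day 27 against day 26, with a median log2 change of -0.33 against 0.00 over all genes tested. The sign turned for Slc4a4 with quantile normalization (0.014), and for Kcnj10, Hepacam and Slc4a4 with the neuron score (0.13, 0.015 and 0.094) and with the astrocyte score (0.021, 0.0093 and 0.12). Gja1 fell by 0.72 ± 0.19 on the log2 scale (SE; limma adjusted p = 0.0412) and Atp1b2 fell by 0.62 ± 0.14 (limma adjusted p = 0.0248). These were 2 of 9 members, where 5.83% of genes passed. The 95% intervals were -1.13 to -0.31 for Gja1 and -0.92 to -0.31 for Atp1b2.

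Gja1 averaged 347.1 ± 88.7 scaled TPM at day 27 (SD, n = 9) and 558.6 ± 169.3 at day 26 (n = 8), with overlap. Its day 27 mean was the lower in each genotype, at 305.3 against 464.9 in Smad4 cKO, 334.8 against 637.2 in Fmr1 KO, 389.8 against 509.5 in double mutants and 364.5 against 780.8 in WT, where day 26 is 1 library. Atp1b2 averaged 877.7 ± 146.6 at day 27 and 1343 ± 284.7 at day 26, and was likewise lower at day 27 in each genotype.

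Kcnj16 had a day log2 change of -0.42 ± 0.13 (SE; limma adjusted p = 0.0701), Gjb6 -0.43 ± 0.19 (0.184), Aqp4 -0.33 ± 0.16 (0.243), Hepacam -0.21 ± 0.08 (0.112) and Mlc1 -0.15 ± 0.06 (0.128). Kcnj10 and Slc4a4 showed the smallest values, -0.11 ± 0.09 (limma adjusted p = 0.512) and -0.09 ± 0.11 (0.641). None of these 7 passed. Hepacam passed without Fmr1 KO replicate 3 (limma adjusted p = 0.0331).

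Markers of several cell types changed with the day. Of the 15 neuron markers, 11 were called higher at day 27 by limma and all 15 lay above 0 (median log2 change 0.95). Their sum was 286.1 to 768.8 scaled TPM at day 27 and 102.4 to 332.9 at day 26. All 16 astrocyte markers lay below 0, with a median of -0.24 and 3 called. So did all 9 microglia markers, with a median of -1.16 and 1 called, and all 7 oligodendrocyte precursor markers, with a median of -0.90 and 2 called, and the part of these in the member values was not tested. With the neuron score in the model, the day values were -0.60 for Gja1 (limma adjusted p = 0.479) and -0.26 for Atp1b2 (limma adjusted p = 0.682). With the astrocyte score they were -0.36 (limma adjusted p = 0.643) and -0.21 (limma adjusted p = 0.613). Without WT replicate 1, the only WT library of day 26, they were -0.62 (limma adjusted p = 0.131) and -0.53 (limma adjusted p = 0.0918). The Atp1b2 call was also lost without Smad4 cKO replicate 6 and without Fmr1 KO replicate 2. The Gja1 call was lost in 12 of the 19 fits without 1 library, those without WT replicates 1, 2 and 4, Smad4 cKO replicates 1, 3, 4 and 6, Fmr1 KO replicates 1, 2 and 4 and double mutant replicates 2 and 4. Over all fits tried, the adjusted p reached 0.643 for Gja1 and 0.682 for Atp1b2. The sort, the day of collection and the age of the mice cannot be told apart here.

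**Figure D4:**
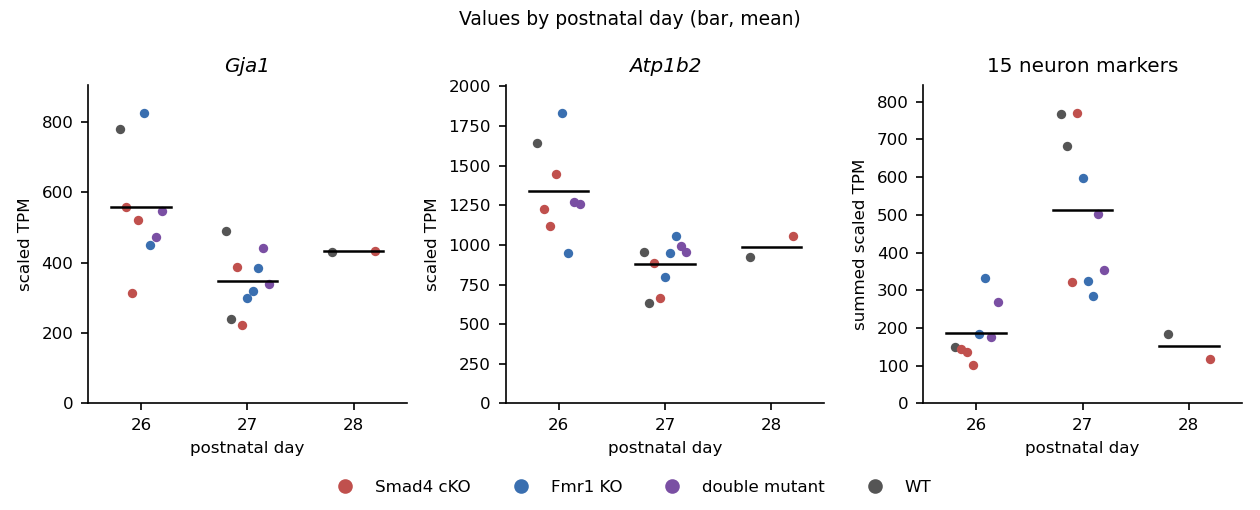
Scaled TPM of Gja1 and Atp1b2 and summed scaled TPM of 15 neuron markers (y axes) by postnatal day (x axis); each point is a library coloured by genotype, and bars are means. Gja1 and Atp1b2 average 347.1 and 877.7 at day 27, below 558.6 and 1343 at day 26, while most neuron marker sums at day 27 lie above those at day 26.

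Partner genes differed in how closely they tracked each other across the 19 libraries. Of 5 pairs examined, Mlc1 with Hepacam had Pearson r = 0.899 and Spearman rho = 0.886 on log2(scaled TPM + 1). The two-sided permutation p was 1e-05 for both, the smallest 100000 draws can give, and 5e-05 after adjustment over the 5 pairs. Without the 2 libraries farthest from the Mlc1 median, r was 0.825, and it was 0.848 within day 26 and 0.946 within day 27. The ratio of Mlc1 to Hepacam stayed between 0.421 and 0.533 in all libraries. The relation was not particular to the pair. Centred on group means, Hepacam had a higher r with Ntsr2 (0.942), Ndrg2 (0.928) and Cyfip1 (0.915) than with Mlc1 (0.893). With the astrocyte score, the centred r was 0.805 for Mlc1 and 0.897 for Hepacam, and the part of that score in the pair was not tested.

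Gja1 and Gjb6, whose proteins share astrocyte gap junctions, had r = 0.209 and rho = 0.286 (adjusted permutation p of 0.649 and 0.391). Within the days r was 0.264 (day 26) and -0.559 (day 27), and without the 2 libraries farthest from the Gja1 median it was 0.247. Aqp4 with Mlc1 had r = 0.462 and rho = 0.360 (adjusted permutation p of 0.117 and 0.330), with r of 0.733 and 0.156 within day 26 and day 27, and 0.361 without the 2 libraries farthest from the Aqp4 median. With TPM as deposited, r was 0.580 (adjusted permutation p = 0.0226).

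The genotype difference of Kcnj10 shows in its relations. Kcnj10 with Kcnj16 had r = 0.0819 and rho = 0.0789 over all libraries (adjusted permutation p of 0.738 and 0.748), but r = 0.630 and rho = 0.579 after each library was centred on its group mean (adjusted permutation p of 0.0278 and 0.0556, drawn within groups). Uncentred, r was -0.397 within day 26, -0.0173 within day 27 and -0.112 without the 2 libraries farthest from the Kcnj10 median. Kcnj10 with Aqp4 had r = -0.122 and rho = -0.151 (adjusted permutation p of 0.738 and 0.674) and r = 0.440 after centring (adjusted permutation p = 0.189), with rho = 0.563 (0.0692). Its uncentred r was -0.339 within day 26, -0.0639 within day 27 and -0.211 without the 2 libraries farthest from the Kcnj10 median.

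**Figure D5:**
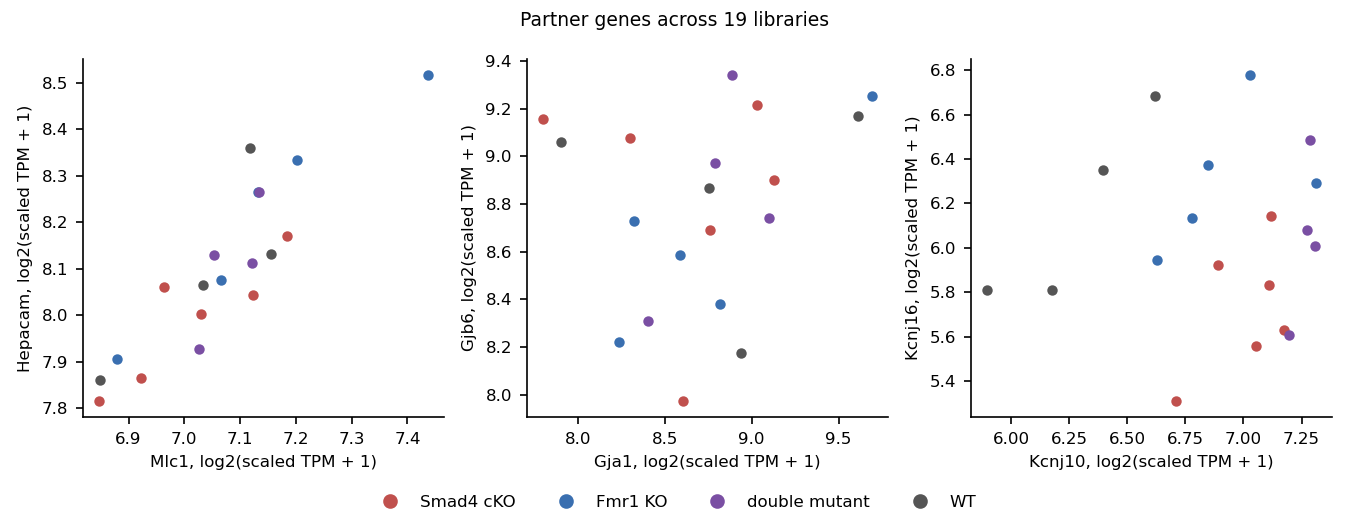
log2(scaled TPM + 1) of partner genes in 19 libraries coloured by genotype, Hepacam against Mlc1, Gjb6 against Gja1 and Kcnj16 against Kcnj10. Mlc1 and Hepacam rise together (r = 0.899), and in the right panel the WT points lie to the left of all others.

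Among all 36 pairs of members, centred on group means and given as a description over 19 libraries, Gja1 with Atp1b2 had the highest r at 0.924, followed by Aqp4 with Gja1 at 0.909 and Mlc1 with Hepacam at 0.893. Aqp4 with Slc4a4 had the lowest at -0.0831. The astrocyte score, a mean over the 16 markers, had r of 0.911 with Atp1b2 and 0.897 with Hepacam, and of 0.441 with Kcnj10, the lowest of the 9. All 9 had a negative r with the neuron score, between -0.738 for Mlc1 and -0.252 for Kcnj10. Each library's sort and scaling enter both values of a pair.

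The genes most like each member, by the same centred r over 12017 genes, included other astrocyte genes. Gja1 was closest to Clu (r = 0.977), which encodes the secreted chaperone clusterin. Atp1b2 had Cst3 (0.958), which encodes the protease inhibitor cystatin C, among its 3 closest. Aqp4 was closest to Dag1 (0.924), which encodes dystroglycan, and Hepacam to Ntsr2 (0.942), a neurotensin receptor. Gjb6 was closest to Scrg1 (0.966), Slc4a4 to Chchd3 (0.934), Mlc1 to Cyp2d22 (0.896) and Kcnj16 to Slc12a4 (0.892), a potassium chloride cotransporter. Kcnj10 had the lowest maximum of the 9, with Fndc5 (0.822).

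Among other genes of potassium clearance, 1 passed by genotype. Of 19 tested, the alpha and beta subunits of the sodium pump, its FXYD regulators and further potassium channels and cotransporters, limma called 0 higher and 1 lower in Smad4 cKO against WT, in double mutants against WT and for the averaged Smad4 label. Over all genes tested, 0.784%, 0.957% and 1.81% passed in these comparisons. In the other comparisons by genotype limma called 0 of the list, against 0 to 1.53% of all genes. The list's median log2 change was -0.03 in Smad4 cKO against WT, against -0.01 over all genes tested.

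The gene called each time was Fxyd6, which encodes a small regulator of the sodium pump. It had 1.33, 2.06 and 5.21 scaled TPM (lowest, median and highest) in Smad4 cKO, and averaged 2.91 ± 0.645 in double mutants, 6.11 ± 1.26 in Fmr1 KO and 7.73 ± 1.67 in WT (SD). Its log2 change was -1.37 ± 0.22 (SE) in Smad4 cKO against WT (limma adjusted p = 0.00361), -1.15 ± 0.24 in double mutants against WT (0.0264) and -1.12 ± 0.16 for the averaged label (0.00059). In double mutants against Fmr1 KO it was -0.86 ± 0.23 (limma adjusted p = 0.198), with no overlap between the groups, and it passed with the neuron score and without Smad4 cKO replicate 6. The call in double mutants against WT was lost in 5 of the 19 fits without 1 library, with day as a number, with the oligodendrocyte score and with the 2 groups fitted alone, with an adjusted p of up to 0.0909 over all fits tried, and that in Smad4 cKO against WT was lost with the 2 groups fitted alone (0.0628). The 5 fits left out WT replicates 2 and 4 and double mutant replicates 1, 2 and 4.

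At day 27 against day 26, Fxyd7, another small regulator of the pump, rose by 0.45 ± 0.13 on the log2 scale (SE; limma adjusted p = 0.0496). Fxyd1, the phospholemman gene, fell by 0.33 ± 0.07 (SE; limma adjusted p = 0.0182). With the neuron score in the model, Fxyd7 turned to -0.0605 (limma adjusted p = 0.917) and Fxyd1 was at -0.061 (limma adjusted p = 0.829). With the astrocyte score they were at 0.27 (limma adjusted p = 0.627) and -0.23 (limma adjusted p = 0.426). The Fxyd7 call was also lost with TPM as deposited, with quantile normalization, under the stricter filter (5 TPM) and with the oligodendrocyte score. Of the 19 fits without 1 library, the Fxyd7 call was lost in 15, all but those without WT replicate 3, Fmr1 KO replicates 3 and 5 and double mutant replicate 4. The Fxyd1 call was lost in 1, without WT replicate 1.

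Of 16 genes of endfoot anchoring and other water channels, 0 were called by limma in any of the 9 comparisons. Over all genes tested, limma called 0 to 1.81% by genotype and 5.83% by day. A count of 0 in a list this short therefore says nothing particular to it. Aqp11, an aquaporin of intracellular membranes, was at -0.57 ± 0.18 in double mutants against WT (SE; limma adjusted p = 0.159), with no overlap between the groups. Of 14 volume regulation genes tested, limma called 0 by genotype and 1 by day, where Lrrc8a, the obligatory subunit of the volume-regulated anion channel, fell by 0.37 ± 0.10 (SE; limma adjusted p = 0.0472). That call was lost in 15 of the 19 fits without 1 library, all but those without WT replicate 4, Fmr1 KO replicate 3 and double mutant replicates 2 and 3. It was also lost with quantile normalization, under the stricter filter (5 TPM) and with each of the neuron, astrocyte and oligodendrocyte scores, and the value was -0.19 with the astrocyte score (limma adjusted p = 0.657).

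Of 12 other connexins and junction partners tested, limma called 0 in each of the 5 comparisons between 2 genotypes. Over all genes tested it called 0 to 0.957% in them. The smallest p in Fmr1 KO against WT was that of Gjc1, which encodes connexin 45, at -0.80 ± 0.26 (SE; limma adjusted p = 0.287). Of 13 bicarbonate and pH genes tested, limma called 1, Car4, lower for the averaged Fmr1 label, and 0 in the other 8 comparisons. For the averaged Fmr1 label, 1.53% of all genes passed. Car4, a membrane-bound carbonic anhydrase also made by brain capillaries, averaged 9.60 ± 2.48 scaled TPM in Fmr1 KO, 10.2 ± 3.33 in double mutants, 23.7 ± 5.10 in Smad4 cKO and 31.0 ± 18.8 in WT (SD). Its log2 change was -1.29 ± 0.24 (SE; limma adjusted p = 0.0179), beside endothelial markers that were lower as well (median -1.04), and their part in it was not tested. The Car4 call was lost without double mutant replicate 2, with the replicate number as a block, with day as a factor and with the oligodendrocyte score, with an adjusted p of up to 0.0871.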

How the data were processed

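The authors deposited TPM per gene for 19 libraries made, per the labels' protocols, after depletion of ribosomal RNA. The submitters' processing notes name bcl2fastq 2.20, MultiQC 1.0, STAR 2.5.3a, HOMER 4.10.4 and the build mm10, without settings. No source used here says whether exons or gene bodies were counted, or on which strand. There are no counts, so depth is unknown.

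TPM was scaled per library by median-of-ratios factors (0.921 to 1.069). log2(scaled TPM + 1) of the 15049 genes past the filter was fitted by limma-trend over all libraries, with group as the only term, plus day for the day comparison. Fold changes are on this scale and understate those of low genes. The Benjamini-Hochberg adjustment ran over all genes of a comparison, and an adjusted p under 0.05 was called. A p-value sets a difference only against the spread between these samples, which may be technical where libraries are not from separate mice.

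The members, the 5 lists of related genes, the 8 marker lists and the tests were chosen with earlier results of these data known. Of each related list, every called gene was named, up to 4 per comparison, and otherwise the gene of smallest p could be. Some genes of these lists are not reported here. A marker score is the mean of centred log2 values. The likeness search used genes averaging at least 5 scaled TPM. Alternatives changed the scaling, pseudocount, filter, variance trend, replicate block, day terms, libraries and marker covariates, of which the astrocyte and oligodendrocyte scores were added after seeing the data. The fit was tested on simulated data. R 4.3.3, limma 3.58.1, Python 3.11.15 and scipy 1.17.1 were used. Positions are from GENCODE on GRCm38.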

Additional observations from a re-analysis of the deposited data

Results flagged for a closer look

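There were 36 groups of values, 9 members in 4 genotypes, and 4 values lay far from the rest of their group. Their gap to the nearest library was more than 0.71 of the group's range for 5 libraries or 0.829 for 4. Chance alone flags about 1 in 20 such groups, but groups of the same libraries are not independent. Aqp4, Gja1 and Atp1b2 had centred r of 0.746 to 0.924 with each other. Of the 4 values, 3 were from the same library, Fmr1 KO replicate 2, collected at day 26. It had 477.4 scaled TPM of Aqp4, where the other 4 Fmr1 KO libraries had 240.5 to 296.9. It had 824.5 scaled TPM of Gja1, where the others had 301.1 to 449.9. It had 1829 scaled TPM of Atp1b2, where the others had 799.1 to 1054. Its astrocyte score, 0.418, was the highest of all 19 libraries, and the part of that score in these values was not tested. The remaining value was Slc4a4 in WT replicate 4, at 152.3 scaled TPM, where the other 3 WT libraries had 125.8 to 127.8. No member's Smad4 difference differed between the Fmr1 backgrounds by the limma interaction test.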

How the results depend on the processing

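The number of members called per comparison is the main result. In Smad4 cKO against WT (1) it was 0 with the replicate block and with the compared groups alone, 2 with the astrocyte score, and 0 to 2 when leaving out each library. In Fmr1 KO against WT (0) it was 1 when each group lost its library with the highest neuron score and 0 to 1 when leaving out each library. For the averaged Smad4 label (1) it was 2 with quantile normalization and with day as a factor, 3 with the astrocyte score, and 1 to 2 when leaving out each library. For the averaged Fmr1 label (1) it was 0 with the replicate block, day as a factor and the oligodendrocyte score, and 0 to 1 when leaving out each library. For day 27 against day 26 (2) it was 1 with TPM as deposited, quantile normalization, a mean TPM of at least 5 and the oligodendrocyte score, 0 with the neuron or astrocyte score, and 0 to 3 when leaving out each library. It did not move in double mutants against WT (1), double mutants against Fmr1 KO (0), double mutants against Smad4 cKO (0) or the interaction (0). The cause was not tested. Deviations from group means of same-numbered libraries had correlations of -0.27 to 0.20. Differently numbered libraries were not compared, so this cannot decide whether replicate numbers pair the libraries. The replicate block gave Kcnj10 in Smad4 cKO against WT 0.80 (limma adjusted p = 0.0563).

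Over all genes tested, the calls in the fits tried ran from 62 to 131 in Smad4 cKO against WT (118 as reported), 21 to 69 in double mutants against Fmr1 KO (61), 0 to 164 in Fmr1 KO against WT (0), 0 to 4 in double mutants against Smad4 cKO (3), 46 to 360 in double mutants against WT (144), 182 to 298 for the averaged Smad4 label (272), 2 to 607 for the averaged Fmr1 label (230) and 0 to 1109 by day (878). The interaction had 0 in each.

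Signs turned in 37 of 2979 refits of 93 log2 changes, none of them called in the refit. Of the changes called as reported, 1 turned, Fxyd7 by day. For the averaged Smad4 label, Gja1 was 0.013 with the replicate block and -0.22 to 0.067 when leaving out each library. Gjb6 was -0.10 when each group lost its library with the highest neuron score and -0.067 with the astrocyte score. Atp1b2 was -0.0031 with quantile normalization, -0.0060 and -0.028 with day as a number and as a factor, -0.064 and -0.18 with the neuron and astrocyte scores, and -0.034 to 0.19 when leaving out each library. Slc4a4 was -0.0076 with quantile normalization, -0.042 with the astrocyte score and -0.019 to 0.0705 when leaving out each library. For the averaged Fmr1 label, Gja1 was -0.0062 with quantile normalization, -0.021 with the replicate block, -0.045 with day as a number and -0.091 to 0.19 when leaving out each library. The Kcnj16 interaction was -0.0012 with the replicate block, -0.076 when each group lost that library and -0.00066 to 0.32 when leaving out each library. By day, with the neuron and the astrocyte score, Kcnj10 was 0.13 and 0.021, Hepacam 0.015 and 0.0093, and Slc4a4 0.094 and 0.12; Slc4a4 was 0.014 with quantile normalization and Fxyd7 -0.0605 with the neuron score. Leaving out each library, Aqp4 in Fmr1 KO against WT ran from -0.0714 to 0.26 and Kcnj16 in double mutants against WT from -0.27 to 0.056. Of the correlations, Kcnj10 with Kcnj16 was 0.63 when centred and -0.112 without the 2 libraries farthest from the median, Kcnj10 with Aqp4 was 0.44 when centred, and Aqp4 with Mlc1 was 0.58 with TPM as deposited.

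Without counts, the depth behind each value is unknown. Groups of 4 to 6 libraries, unequal numbers per day and marker levels that moved with day and genotype limit the comparisons, and RNA of nuclei need not follow protein.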
